A study of Drosophila melanogaster with 3 samples.

Results

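The Dpr, DIP, Beat and Side proteins are immunoglobulin-domain proteins of the cell surface, and their genes were examined here in a map of chromatin bound by Nerfin-1. Nerfin-1 is a transcription factor with zinc fingers that newly born neurons produce. The 54 genes were taken by name and comprised 21 dpr, 11 DIP, 14 beat and 8 side genes, of 13945 protein-coding genes in all. All 54 names were found in the annotation. Binding was mapped by ChIP-seq (sequencing of DNA that co-precipitates with a protein) in 3 biological replicates of Drosophila melanogaster embryos. The flies stably carried nerfin-1 fused at its C terminus to GFP, and the antibody recognised GFP. Each replicate was of whole embryos of both sexes aged 4 to 16 h, so all cell types of the embryo were mixed, and a site bound in few cells cannot be told apart from one bound weakly in many. All 3 replicates belong to 1 group, no list from embryos without the tagged protein was used here, and no test between conditions was possible. The labels do not say whether the untagged gene was also present.

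The 3 replicate lists and a pooled list held 30000 peaks each. A reproducibility threshold, the irreproducible discovery rate (IDR), left a list of 7056, which were the 7056 strongest of the pooled list. Peaks were ranked within a list by the authors' signal value, rank 1 being the strongest, and each summit was assigned by distance to a protein-coding gene, the one whose transcription start site (TSS) was closest. The lists carry no read counts, so depth is unknown. The regulated gene need not be the closest one. Coordinates are those of dm6.

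Dpr proteins (named after the defective proboscis extension response of the first mutant) bind DIP proteins across synapses, and each DIP recognises a small set of Dprs. DIP-alpha pairs with Dpr6 and Dpr10, DIP-gamma with Dpr11 and DIP-delta with Dpr12. Side and Beat proteins form a second network: Sidestep on the path of motor axons is read by Beat-Ia on the axons, and in beat-Ia or side mutants motor axons fail to leave their bundles at the right points. In nerfin-1 mutant embryos early axons are misrouted and a subset of axon guidance genes is not expressed normally.

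An IDR summit was assigned to 12 of the 54 genes (22.2%), against 28.6% of all protein-coding genes. The side family had 5 of 8 genes with a summit (62.5%), dpr 4 of 21 (19.0%), DIP 2 of 11 (18.2%) and beat 1 of 14 (7.14%). Of the 17 summits at members, 10 were at side genes, 4 at dpr, 2 at DIP and 1 at a beat gene. This majority was not kept under other rules: the side genes held 12 of 26 where summits went to the gene body holding them, 3 of 8 within 1000 bp of a TSS and 3 of 7 among the 3528 strongest IDR peaks, although they held 9 of 16 with 1 summit per interval. Among its 7056 strongest peaks, replicate 1 had summits at 11 members, against 27.2% of all genes. Replicate 2 had them at 15 members against 30.3% of all genes, and replicate 3 at 8 members against 26.9%, a mean of 11.3 ± 3.51 members (SD, n = 3). The side genes numbered 5, 4 and 3 in replicates 1, 2 and 3 (4.00 ± 1.00), the dpr genes 3, 5 and 2 (3.33 ± 1.53), the DIP genes 2, 4 and 1 (2.33 ± 1.53) and the beat genes 1, 2 and 2 (1.67 ± 0.577). The beat share was below that of all genes in each replicate, the side share was above it in each, and the DIP share lay on both sides of it. These shares are not matched for the length of a gene's surroundings, which is treated below. Keeping only IDR summits that were among the strongest peaks of both other replicates left 6 members without replicate 1, 7 without replicate 2 and 9 without replicate 3, against 18.5%, 20.8% and 19.3% of all genes in that order. The side genes then held 3 of 7, 4 of 8 and 4 of 10 summits.

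**Figure D1:**
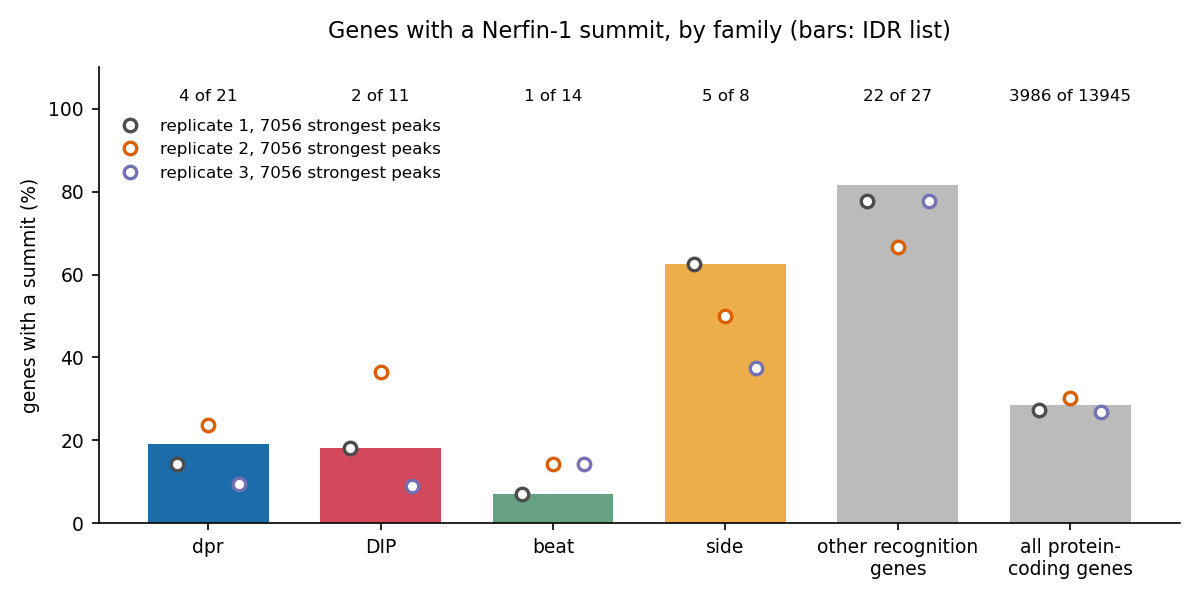
Share of genes (%) with a Nerfin-1 summit in each family, in other recognition genes and in all protein-coding genes. Bars give the IDR list, open circles the 7056 strongest peaks of each replicate, and the numbers on top the genes with an IDR summit of all genes. The side bar stands at 62.5%, above the 28.6% of all genes, and the beat bar at 7.14%. The shares are not matched for the length of a gene's surroundings.

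Most genes of these families are long, with a median of 36.2 kb against 2.17 kb for all genes. The best ranked members, side-VII and dpr19, are shorter, at 5.97 and 3.74 kb. Counts were therefore also set beside those of genes with similarly long surroundings. A territory is the sequence nearer to a gene's TSSs than to those of any other gene. Its median was 23.2 kb for members, 40.4 kb for the side genes and 4.25 kb for all genes. All genes were put in order of territory and divided into 10 classes of equal number. In the class with the longest territories, 6 of 28 members had an IDR summit, against 51.0% of the other genes there and 50.4% with members included. Of the 6 side genes in that class, 3 had one, a share close to that of all genes there. In the next class, 3 of 13 members had one, against 41.2% of the other genes. Over the 3 longest classes together the count was 9 of 45 (20.0%), against 42.5% of all genes of those classes, and 4 of the 9 were the side genes among 7 there. IDR summits per Mb of territory numbered 7.82 for members and 52.7 for all genes. Without DIP-lambda and dpr21, whose territories of 591 and 198 kb are the longest of the 54, the density of members was 12.3 per Mb. By family the density was 30.6 per Mb for side, 6.35 for dpr, 2.51 for beat and 2.44 for DIP. With the 2 genes left out it was 9.26 for dpr and 8.76 for DIP. The difference between members and other genes was described and not tested.

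**Figure D2:**
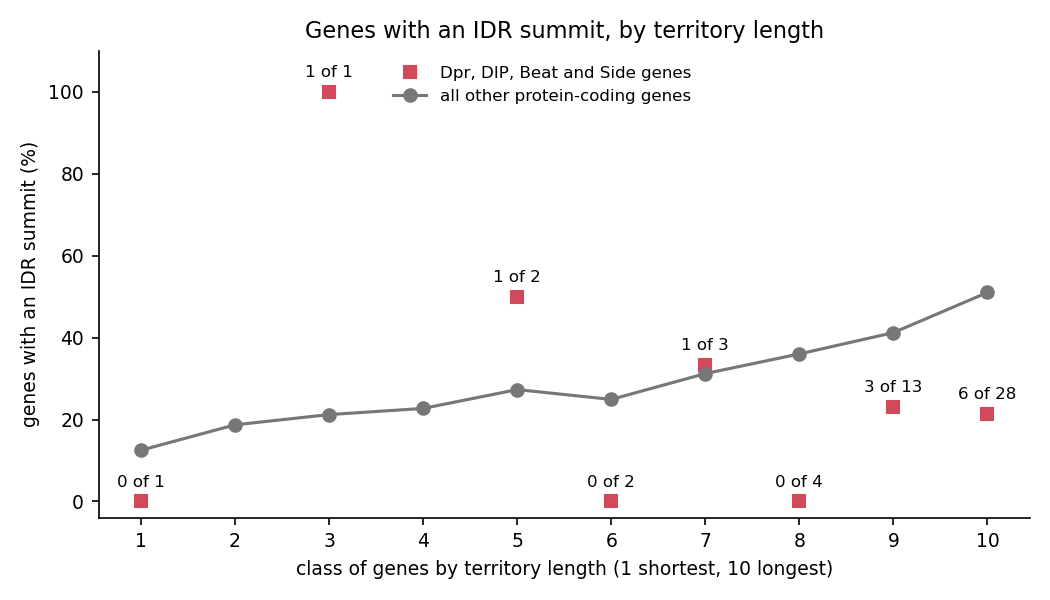
Share of genes (%) with an IDR summit (vertical axis) in each of 10 equal classes of protein-coding genes by territory length (horizontal axis). Squares are the members, labelled with their numbers, and circles all other genes. In the longest class 6 of 28 members had a summit, against 51.0% of the other genes.

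Side genes held the strongest site of the 54 genes. The strongest summit lay at side-VII (FBgn0037736), in the peak chr3R:9739604-9740300, with its summit at 9739959, 20 bp inside the start of the transcript. It ranked 255 in the IDR list, and 164, 1031 and 142 in replicates 1, 2 and 3. It was among the strongest peaks in every replicate and ranked lower in replicate 2 than in the other 2. The same interval held a second summit, 183 bp upstream of the TSS, at rank 5370 of the IDR list and at ranks 5628, 6145 and 4868 in the replicates. The next protein-coding TSS, that of Pnn, lay 940 bp from the first summit and 737 bp from the second. The sequence at the strongest summit of each family is shown from the RefSeq release 6 genome, on the plus strand and without annotated exons, because these are the best ranked sites of the 4 families. For side-VII the summit itself lies in an annotated exon and is not shown. The printed stretch is the one just upstream of the transcript, chr3R:9739980-9740059:
side-VII: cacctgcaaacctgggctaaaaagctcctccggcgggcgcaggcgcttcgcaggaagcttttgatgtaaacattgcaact

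The gene with the most IDR summits was side-IV (FBgn0038156), whose product binds Beat-IIa and Beat-IIb. Of its 4 summits, 2 lay in intron 2, 2456 and 3551 bp downstream of the TSS, and 2 lay upstream, at 1977 and 3937 bp. The first, at chr3R:13452989-13453194, ranked 1774 in the IDR list, and 3568, 965 and 9536 in replicates 1, 2 and 3. The second ranked 3691 in the IDR list and 2963 in replicate 2, and had no peak within 100 bp in replicates 1 and 3. The upstream pair ranked 5982 and 6818 in the IDR list. Their ranks were 24468, 4076 and 12163 for the nearer one and 9328, 4537 and 17211 for the farther one. All 4 sites ranked highest in replicate 2, and none of them was among the 7056 strongest peaks of replicate 3. No IDR summit of side-IV was left without replicate 1 or without replicate 2, and side-IV was kept without replicate 3.

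At side (FBgn0016061), the founding gene of the family, 2 summits lay inside the gene, 10343 and 30242 bp from its single TSS, in introns 1 and 2. The summit in intron 1, at chr3R:27427014-27427266, ranked 3573 in the IDR list, 2101 in replicate 1 and 2869 in replicate 3. In replicate 2 the nearest peak lay 108 bp away, just past the distance that counts as shared, at rank 6667. The summit in intron 2 ranked 4381 in the IDR list and 7652, 3073 and 13012 in replicates 1, 2 and 3, so here replicate 2 had the best rank. A further gene of the family, side-II (FBgn0259213), had 1 intergenic summit at chr2L:14973689-14973938, 1601 bp upstream of its TSS and 567 bp from the start of the non-coding gene lncRNA:CR45331. It ranked 2656 in the IDR list and 2193, 4023 and 1982 in the replicates, within the strongest peaks of each. The summit of side-V on arm 2R, 44 bp inside the transcript, ranked 6778 and was near the end of the list. Its ranks were 5748, 9039 and 7430 in the replicates. No list had a peak assigned to side-III or side-VI, whereas side-VIII had 3 pooled peaks, the best at rank 15443.

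**Figure D3:**
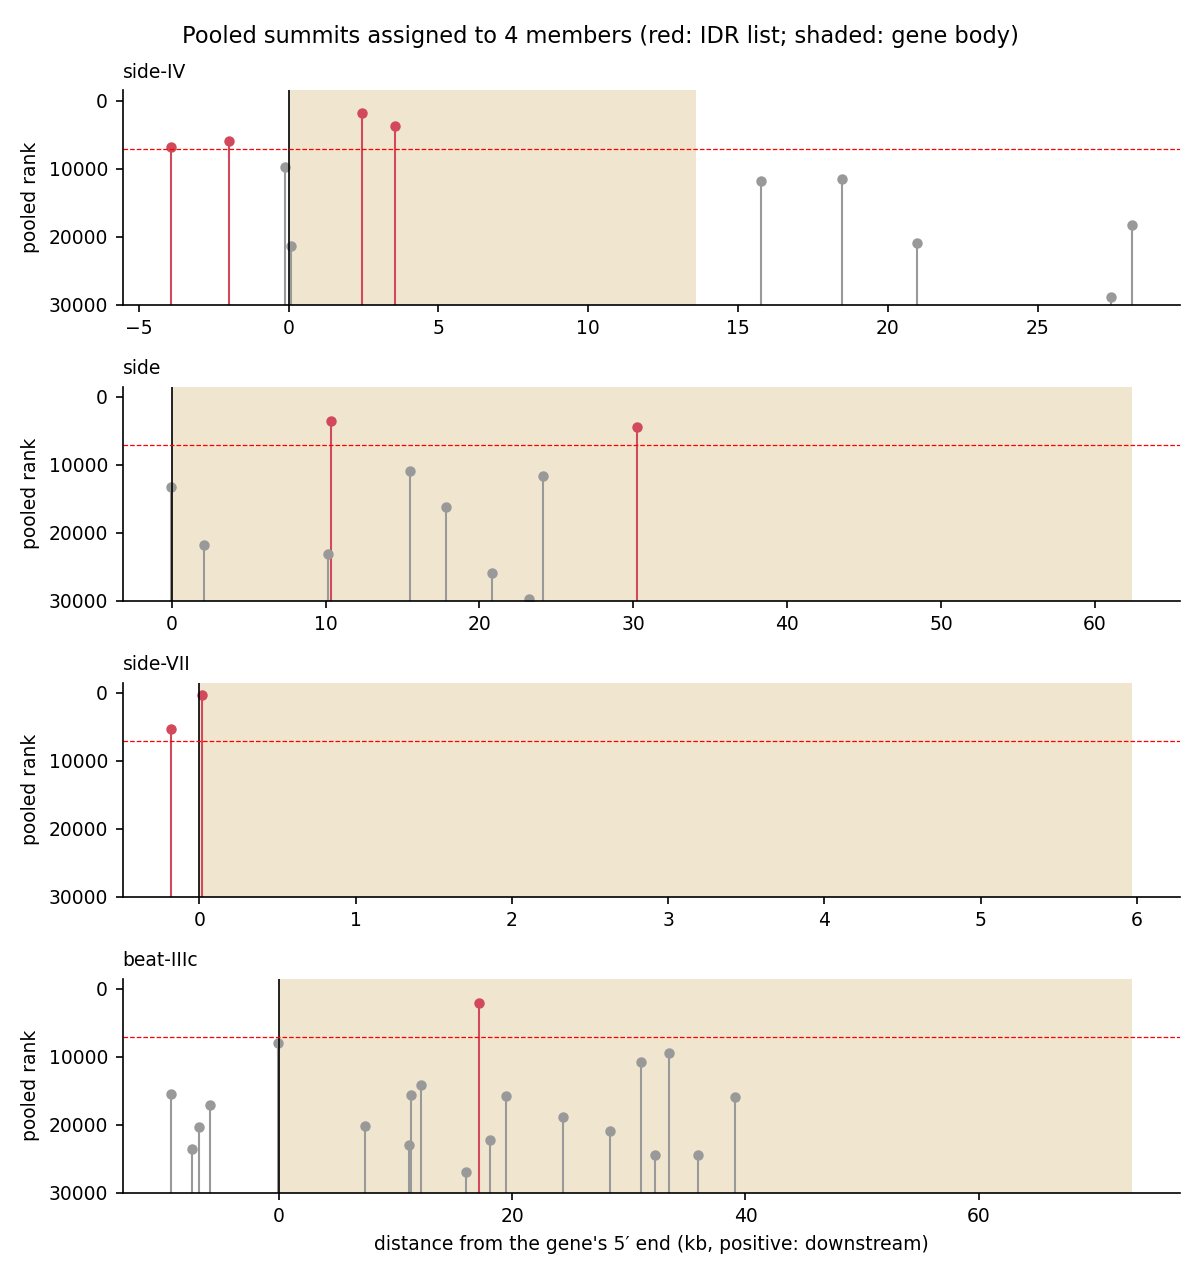
Pooled summits assigned to side-IV, side, side-VII and beat-IIIc, by distance from the 5′ end of the gene (kb, horizontal axis) and rank in the pooled list (vertical axis, strongest at the top). Red marks summits of the IDR list, grey weaker ones, the dashed line the end of the IDR list and the shading the gene body. The 4 IDR summits of side-IV lie on both sides of its start, and the 1 of beat-IIIc lies among 20 pooled summits.

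Of the 14 beat genes, 6 (42.9%) had a pooled summit, against 51.8% of all genes, and beat-IIIc and beat-Ia held 20 and 6 of their 32 pooled summits. The IDR summit of beat-IIIc (FBgn0032629) lay in intron 2 at chr2L:17243440-17243676, 17187 bp from the TSS. It ranked 2129 in the IDR list and 2794, 1791 and 3794 in replicates 1, 2 and 3, and so was among the strongest peaks of each replicate. Its 20 pooled summits were the most assigned to any member by nearest TSS, whereas by gene body side-V held 24 and beat-IIIc 20. Another pooled summit of beat-IIIc, 45 bp upstream of the TSS, ranked 7910. The 201 bases around the IDR summit in intron 2 held 1 copy of the homeodomain word TAATTA, in capitals (chr2L:17243447-17243647):
beat-IIIc: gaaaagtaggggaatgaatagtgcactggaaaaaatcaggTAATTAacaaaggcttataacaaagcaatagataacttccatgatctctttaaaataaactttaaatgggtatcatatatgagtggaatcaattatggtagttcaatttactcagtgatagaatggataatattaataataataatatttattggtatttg

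The nearest start site left out sites inside long beat genes. The body of beat-Ib held 5 IDR summits, none of which had the TSS of beat-Ib as the nearest. The strongest, at 15911291 of arm 2L, ranked 578 in the IDR list and lay 5597 bp from the TSS of the nested gene CG13244. Others ranked 781, 2389 and 6498, also nearest to CG13244, and 1, at rank 6695, was nearest to CG31821. Where a summit was given to the gene whose body holds it, beat-Ib was added and 13 of 54 members had a summit (27.3% of all genes), with 26 summits in place of 17. Over all members, 9 of the 17 IDR summits inside their bodies were nearest to another gene, 5 of the 9 in beat-Ib alone. The same share over the bodies of all genes is not given here, so nothing is drawn from this count. Besides those of beat-Ib, these were 1 each in DIP-alpha (rank 1086, nearest to ppk8) and beat-IIIc (rank 5234, nearest to Grl36a) and 2 in side-V (ranks 6051 and 6482, nearest to CG13539).

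The receptor gene of the Side pathway, beat-Ia, had no IDR summit and 6 pooled summits, the best at rank 10408 and 18469 bp into the gene. In replicate 2 a peak 174 bp from its TSS ranked 6755, and in replicate 3 another one 21818 bp into the gene ranked 6556. Each was among the strongest peaks of 1 replicate and had no peak within 100 bp in the other 2. Best pooled ranks were 10479 for beat-VII, 18870 for beat-IIa, 20704 for beat-IIb and 28761 for beat-VI. For beat-IIa, beat-IIb and beat-VI, replicates 1 and 3 had no peak, and replicate 2 had 7, 4 and 3 peaks with best ranks of 10902, 9679 and 12864 in that order. Peaks of beat-Vc were found in replicate 2, 3 of them with a best rank of 11241, and in no other list. No list had a peak assigned to beat-Ib, beat-Ic, beat-IIIa, beat-IIIb, beat-IV, beat-Va or beat-Vb. The TSS of beat-IIIa coincides with that of CG34106, to which ties were given, so no summit could be assigned to it, and its body held no pooled summit.

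DIP genes had an IDR summit at DIP-alpha and DIP-gamma. That of DIP-alpha (FBgn0052791), the receptor of Dpr6 and Dpr10, lay at chrX:3530804-3531137, 316 bp upstream of the nearer of its 2 TSSs and inside intron 3 of the longer transcript. It ranked 2185 in the IDR list and 1366, 5115 and 1428 in replicates 1, 2 and 3, among the strongest peaks of each. With 59.2% G+C it was the richest in G+C of the 17 summits, as its sequence shows (chrX:3530881-3531081):
DIP-alpha: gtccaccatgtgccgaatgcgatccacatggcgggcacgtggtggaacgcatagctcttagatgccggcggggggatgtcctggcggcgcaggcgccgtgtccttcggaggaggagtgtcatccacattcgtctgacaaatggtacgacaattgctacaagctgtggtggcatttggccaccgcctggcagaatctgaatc

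The summit of DIP-gamma (FBgn0039617), the receptor of Dpr11, lay 21372 bp upstream of its TSS. At rank 6930 it was the last of the 17 in the IDR list, and it ranked 10023, 6440 and 8487 in the replicates. A site of DIP-eta, 7678 bp from its TSS, ranked 4802, 5397 and 13852 in replicates 1, 2 and 3 but the nearest pooled summit lay 1928 bp away. A site of DIP-delta, the receptor of Dpr12, ranked 1341 in replicate 2 and had no peak within 100 bp in any other list, the nearest pooled summit lying 80883 bp away. DIP-beta had 2 pooled summits, the best at rank 20915, and DIP-iota had peaks in replicates 1 and 3 at ranks 29811 and 28840. No list had a peak assigned to DIP-epsilon, DIP-zeta, DIP-theta, DIP-kappa or DIP-lambda.

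Among the dpr genes, all 4 IDR summits lay upstream of the gene and within 541 bp of its TSS. The strongest, of dpr19 (FBgn0032233), lay at chr2L:10375793-10376127, 191 bp upstream of its TSS and 220 bp from that of the divergent gene CG33303. It ranked 1705 in the IDR list and 2557, 1647 and 1642 in the replicates. The matching peaks of replicates 1 and 3 were nearer to CG33303, so the site cannot be told apart as belonging to dpr19 or to CG33303. Its sequence held 20.9% G+C, the lowest of the 17 (chr2L:10375877-10376077):
dpr19: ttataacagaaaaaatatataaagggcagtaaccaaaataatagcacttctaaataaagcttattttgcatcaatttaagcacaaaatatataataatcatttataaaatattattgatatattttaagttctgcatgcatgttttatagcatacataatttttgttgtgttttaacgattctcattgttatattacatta

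The promoter summit of dpr17 (FBgn0051361), at chr3R:12094714-12094930 and 57 bp upstream of its TSS, ranked 2938 in the IDR list, 1956 in replicate 1 and 5348 in replicate 2. The nearest peak of replicate 3 lay 101940 bp away. Of all IDR summits, 1.54% had no peak of replicate 3 within 1000 bp. Besides dpr17, the same held for the summit of dpr2 and for the side-IV summit at rank 3691. The nearest peak of replicate 3 lay 1168 bp from the latter. The intergenic summit of dpr20, at chr3L:857742-857881 and 541 bp upstream, ranked 4711 in the IDR list and 6079, 4970 and 4512 in the replicates, among the strongest peaks of each. The intergenic summit of dpr2, at chr2L:10964469-10964904 and 534 bp upstream, ranked 4768 in the IDR list, 6577 in replicate 1 and 3577 in replicate 2, and in replicate 3 the nearest peak lay 1385 bp away. Below the IDR list, the best pooled rank was 7456 for dpr5, 8581 for dpr12, 9465 for dpr18, 11314 for dpr14, 12651 for dpr10, 13709 for dpr8, 13745 for dpr4, 15394 for dpr9, 16946 for dpr1 and 22758 for dpr3. With 8 pooled summits, dpr12, the gene of the DIP-delta ligand, had the most of this family. Peaks of dpr13, dpr15 and dpr16 were found in replicate 2 alone, at best ranks of 23900, 24679 and 12181, and no list had a peak assigned to dpr6, dpr7, dpr11 or dpr21.

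**Figure D4:**
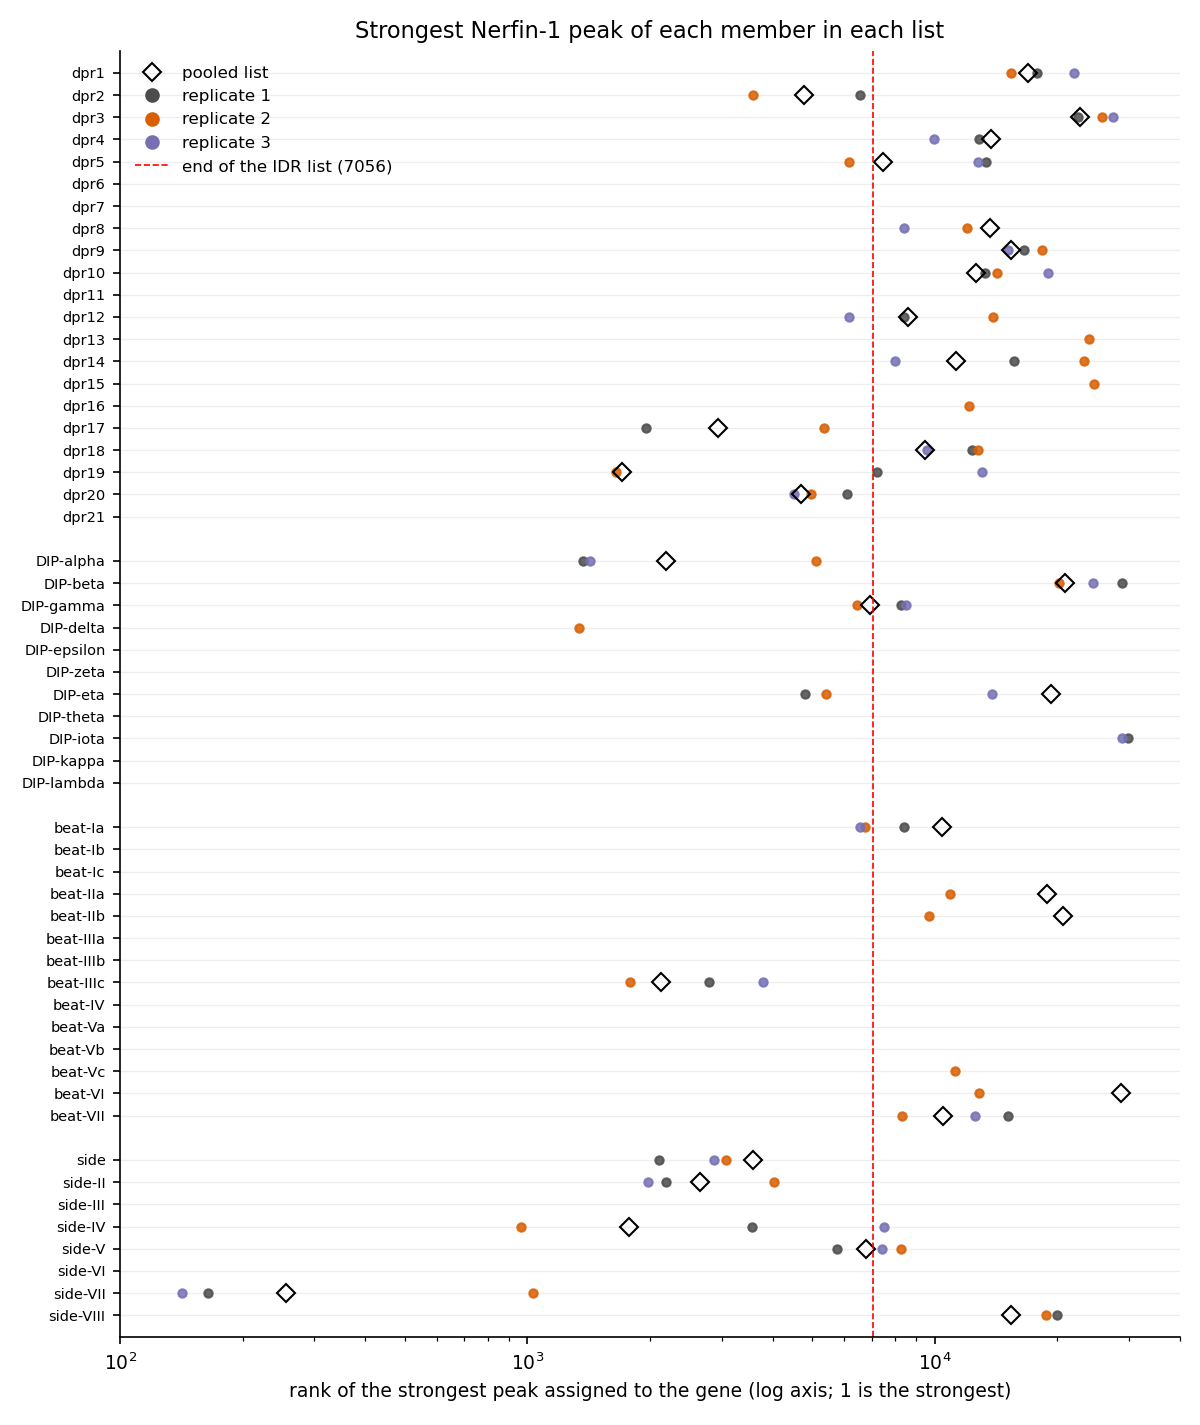
Rank of the strongest peak assigned to each of the 54 genes (log axis, 1 is the strongest) in the pooled list (diamonds) and in replicates 1, 2 and 3 (circles); genes with no mark had no peak in that list. The dashed line is the end of the IDR list at 7056, and 12 diamonds lie to its left, led by side-VII at 255.

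The values of known partner genes were set side by side for 10 pairs. None of the dpr and beat genes in these pairs has an IDR summit, since dpr2, dpr17, dpr19, dpr20 and beat-IIIc are not among them, so the pairs give no count of shared summits. DIP-alpha had 1 IDR summit, whereas dpr10 had 2 weaker pooled summits and dpr6 none in any list. DIP-gamma had 1, and no list had a peak assigned to dpr11, although its body held 2 pooled summits nearest to other genes. Dpr17 is also a known ligand of DIP-gamma, and dpr17 had 1 IDR summit as well. This pair was picked after its values were seen. Further ligands of DIP-gamma were not set beside it, so nothing is drawn from it. DIP-delta had no pooled summit and dpr12 had 8. The side gene had 2 IDR and 10 pooled summits, and beat-Ia had no IDR summit and 6 pooled ones. At side-IV there were 4 IDR and 11 pooled summits. Its partners beat-IIa and beat-IIb had no IDR summit and 3 and 1 weaker pooled ones. Neither side-VI nor beat-Va, beat-Vb or beat-Vc had a pooled summit. These 10 pairs share genes and are not independent.

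In the pooled list 30 of 54 members (55.6%) had a summit, against 51.8% of all genes. The numbers were 14 of 21 dpr, 4 of 11 DIP, 6 of 14 beat and 6 of 8 side genes. Among the 3 classes of longest territories 25 of 45 members (55.6%) had one, against 65.2% of all genes there. Pooled summits per Mb of territory numbered 50.1 for members and 224 for all genes. The best pooled rank of members with one had a median of 9936.5, against 6075 for all genes with one, and of the pooled summits at members 15.6% were in the IDR list, against 23.5% overall. Among all peaks of a replicate, 27, 34 and 25 members had one in replicates 1, 2 and 3, against 53.1%, 56.8% and 52.4% of all genes. No peak of any list was assigned to 18 members, of which 7 were beat, 5 DIP, 4 dpr and 2 side genes. The same count over all genes is not given here, so nothing is drawn from this number or its split by family. The bodies of some of these still held pooled summits nearest to other genes: 9 in beat-Ib, 2 in dpr11, 1 in DIP-theta and 1 in side-III.

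The 17 sites were placed by position relative to genes. Of the 17 IDR summits at members, 6 (35.3%) lay within 500 bp of a TSS of any gene, against 50.1% of all IDR summits. Introns held 5 (29.4%, against 32.8%) and intergenic sequence 6 (35.3%, against 14.2%), and no summit lay in an exon outside promoters. The median distance to the nearest protein-coding TSS was 1601 bp at members and 633.5 bp over all IDR summits, and 4 of 17 lay beyond 10000 bp (23.5%, against 10.4%). The median distance was 362.5 bp for the 4 dpr summits and 2216.5 bp for the 10 side summits. With 17 summits, 1 more or fewer moves a share by several percentage points. Among the member summits kept without replicates 1, 2 and 3, promoters held 4 of 7, 4 of 8 and 5 of 10. These classes and distances were not matched for territory, whose median was 23.2 kb for members and 4.25 kb for all genes.

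The replicates ranked these sites differently, and base composition is given beside their ranks. Of the 17 summits, 7 (41.2%) were among the strongest peaks of all 3 replicates, against 47.3% of all IDR summits, and 13 (76.5%, against 82.2%) were matched in all 3 full lists. Replicate 1 held 12 of the 17 (70.6%) among its strongest peaks, replicate 2 held 15 (88.2%) and replicate 3 held 8 (47.1%). Over all IDR summits replicate 1 held 78.2%, and both replicates 2 and 3 held 73.8%. Of the 5 summits with under 30% G+C in the surrounding 201 bp, at side-IV, dpr19 and beat-IIIc, 4 ranked best in replicate 2, 3 of them at side-IV alone, and over all IDR summits of that class 88.7% did. Of the 8 with 30 to 45% G+C, 4 ranked best in replicate 2 and 3 lowest, against 53.7% ranking best there over all IDR summits. Of the 4 with over 45% G+C, at DIP-alpha, dpr17, side and side-V, none ranked best in replicate 2 and 3 ranked lowest there or had no match, and over all IDR summits of that class 9.29% ranked best in replicate 2. These limits of G+C were chosen after the values were seen. The median G+C was 38.3% at members and 39.8% over all IDR summits. The part of base composition in the ranks was not tested.

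**Figure D5:**
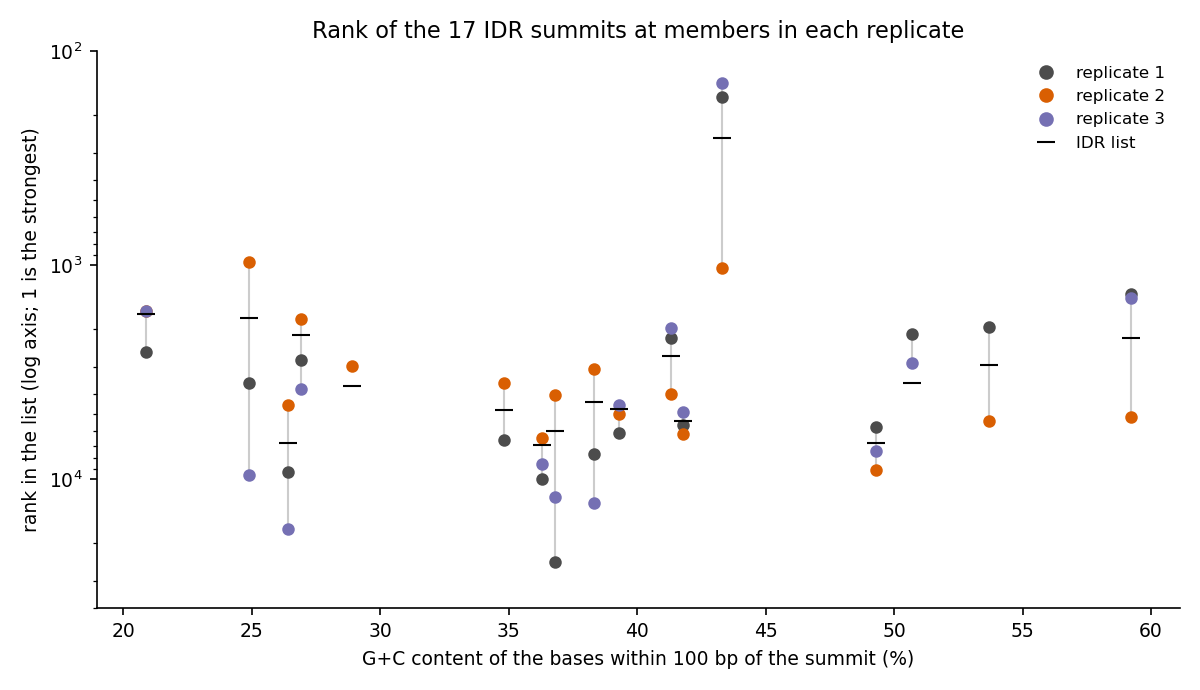
Rank of the 17 IDR summits at members in replicates 1, 2 and 3 (circles, log axis with the strongest at the top) against the G+C content (%) of the 201 bp around the summit; black dashes give the rank in the IDR list. Toward low G+C the circles of replicate 2 lie on top in 4 of 5 summits, and above 45% G+C in none of 4.

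Words recognised by other transcription factors were counted beneath the sites. Within 50 bp of the summit, on either strand, the Scalloped word (ACATTCC or GCATTCC) was found at 1 of 17 member summits (5.88%), against 5.07% of all IDR summits, and the homeodomain word TAATTA at 3 (17.6%, against 7.50%). The DREF word TATCGAT, the E box CAGCTG, the GAGA word GAGAGAG and the Zelda word CAGGTAG were found at none, against 3.34%, 4.58%, 3.39% and 0.539% of all IDR summits. None of these words contains another. The Scalloped word lay beside dpr17, on the minus strand, so that it reads GGAATGT in the plus strand sequence up to the TSS (chr3R:12094719-12094875):
dpr17: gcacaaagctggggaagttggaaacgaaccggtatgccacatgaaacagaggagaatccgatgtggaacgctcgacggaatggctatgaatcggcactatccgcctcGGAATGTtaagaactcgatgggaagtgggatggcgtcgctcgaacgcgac

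All 3 copies of TAATTA within 50 bp were at side genes, 2 at side-IV and 1 at side, which is why these windows of 101 bp are shown. They were chosen after their values were seen. The summits lay 3551 bp downstream of the side-IV TSS (chr3R:13454091-13454191), 30242 bp inside side (chr3R:27407190-27407290) and 1977 bp upstream of the side-IV TSS (chr3R:13448563-13448663):
side-IV intron: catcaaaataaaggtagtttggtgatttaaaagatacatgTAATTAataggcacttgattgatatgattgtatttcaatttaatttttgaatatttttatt
side intron: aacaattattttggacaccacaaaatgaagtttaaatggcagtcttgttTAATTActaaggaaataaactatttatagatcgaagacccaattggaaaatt
side-IV upstream: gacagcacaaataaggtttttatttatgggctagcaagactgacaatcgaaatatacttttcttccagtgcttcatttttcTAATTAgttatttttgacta

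The wider 201 bp around these 3 summits held 28.9%, 38.3% and 36.8% G+C in that order. A match is a string of letters and not a site shown to be bound by another factor.

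For comparison, the same assignment was made for other recognition genes of neurons. The 27 such genes include adhesion molecules, Robo and Frazzled receptors and receptor phosphatases. Of them, 22 (81.5%) had an IDR summit, against 28.6% of all protein-coding genes and 50.4% of those in the class with the longest territories. Among the strongest peaks of replicates 1, 2 and 3, 21, 18 and 21 had one (20.0 ± 1.73, SD, n = 3). The shares of all genes were 27.2%, 30.3% and 26.9% in that order. The median territory was 23.2 kb for the 54 genes and 37.1 kb for these 27, and IDR summits per Mb numbered 7.82 for the 54 genes and 61.5 for these 27. Dscam1, kirre and CadN had 8 IDR summits each, with best ranks of 253, 437 and 1364, while Dscam2, Dscam3, sns, CadN2 and Ptp69D had none. Among immunoglobulin relatives of the Dpr and DIP proteins, Ama (6 summits, best rank 1150), klg (3, rank 3140) and Lac (2, rank 3954) had IDR summits and wrapper had none. The gene of cDIP, a leucine-rich repeat protein that binds several Dpr and DIP proteins, had none in the IDR or pooled list. These lists were chosen with earlier results known, and their difference from the 54 genes was not tested.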

How the data were processed

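Peaks were called by the authors on each replicate and on the pooled replicates against a control, and a further list was thresholded by IDR, all on dm6, per the labels' file lists. The caller and thresholds were not given in the sources used here. Each peak carries a deposited signal value, which was used to rank peaks within a list, and a deposited −log10 q-value, which was at its maximum in 100% of IDR rows and so was not used. Fragments of 200 to 800 bp were sonicated, per the labels. Summits were assigned to the nearest protein-coding TSS of Ensembl release 115 (BDGP6.54); 204 genes had no sequence nearest to them, for instance through a shared TSS, and could receive none. Promoters were the 500 bp around the TSS of any gene except pseudogenes and transposable elements, and peaks within 100 bp counted as shared. To match the IDR list, the 7056 strongest peaks of each replicate were used. Counts were set beside those of all genes, with no test, since there is 1 group. The samples are labelled biological replicates. Members and lists were chosen with earlier results of these data known. Every member was named, and positions are given for the strongest summits of the 10 best ranked members. The calculations (Python 3.11.15, pandas 2.3.3, numpy 2.4.6) were tested on simulated data. The alternatives tried were the 3528 strongest peaks of the list, other assignment rules, other distances and leaving out a replicate.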

Additional observations from a re-analysis of the deposited data

How the results depend on the processing

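Among the 3528 strongest IDR peaks 7 members had a summit (17.4% of all genes had one), of which 2 were dpr, 1 DIP and 3 side genes, with 7 summits. With summits within 1000 bp of a TSS the number was 7 (22.4% of all genes), with 1 DIP, 0 beat and 2 side genes and 8 summits. Giving summits to the gene body holding them gave 2 beat genes and 26 summits. Without 1 replicate, 6 to 9 members had a summit, with 2 to 4 dpr, 1 to 1 DIP and 2 to 3 side genes and 7 to 10 summits; requiring both other replicates shortens the list by construction. Counting any peak of a replicate, 13 summits were found in all 3. Counts of promoter summits (4 to 9) and of summits with a word (4 to 5) stayed within 1.5 times the reported counts of 6 and 4. The promoter share was not kept when a replicate was left out. It was 4 of 7, 4 of 8 and 5 of 10 member summits without replicates 1, 2 and 3, against 6 of 17 as reported. The densities without DIP-lambda and dpr21 were computed after the data were seen. No paired analysis was possible because all 3 replicates belong to 1 group. Depth is unknown, so a gene without a peak is not shown to be unbound.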

Other observations

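The pooled list holds weaker sites of these families as well. Of the 109 pooled summits at members, 61 (56.0%) were intronic, against 41.4% of all pooled summits, and 23 (21.1%) were at promoters, against 32.2%. The beat genes had 26 of their 32 pooled summits in introns, of which 15 were assigned to beat-IIIc and 6 to beat-Ia, and 8 of the 14 beat genes had no pooled summit. The median distance from the TSS was 8911 bp at members and 2068 bp over all pooled summits, and the median G+C was 46.8% at members and 42.3% over all pooled summits. Classes and distances were not matched for territory length here either.

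The DIP-eta site that all 3 replicates held was missing from the pooled list. Of 10591 sites found in all 3 replicate lists, 47 had no pooled summit within 1000 bp, and this was 1 of them. Among the 3743 that were within the strongest peaks of replicates 1 and 2, 9 had none, again with the DIP-eta site among them.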
